A study of Mus musculus with 7 samples.

Results

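The 26 genes described here encode the enzymes that build cholesterol, the proteins that control the transcription factor SREBP2, and 3 proteins that handle cholesterol once it is made. They were chosen by name, as rows of the per-library gene tables, and all 26 were found and tested, of 23366 genes in the tables and 11251 tested. Msmo1 is listed there under its older symbol Sc4mol. RNA was sequenced from the liver of C57BL/6 mice, an inbred laboratory strain, in 3 libraries from animals 21 months old and 4 from animals 3 months old, to compare old with young. No genetic change or treatment is labelled in either group, and the labels are silent on sex, time of day, feeding and cage. Nothing states that each library is a different animal, so the p-values measure the spread between these libraries, which may be technical.

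Cells make cholesterol from acetyl-CoA through mevalonate, isoprenoid diphosphates, squalene and lanosterol, and liver is a major site of this synthesis. When membranes of the endoplasmic reticulum hold little sterol, the escort protein SCAP carries SREBP2 to the Golgi, where proteases release its active part, which enters the nucleus and switches on the genes of the pathway. When sterol is plentiful, INSIG proteins hold SCAP and SREBP2 back, so the transcripts of the enzymes tend to go up and down together. In mouse liver the pathway is also known to follow feeding and the time of day.

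SREBP2 is known to bind sterol regulatory elements in promoters together with NF-Y, a factor that binds CCAAT boxes. RefSeq promoter sequence (build GRCm38.p6) was matched for 21 of the 26 genes, and Fdps, Fdft1, Sqle, Stard4 and Soat2 had no match. The 250 bases before each annotated start were searched on both strands, and a gene with several starts counted once if any of them matched. The box CCAAT, or ATTGG on the other strand, was found in 19 of the 21 genes (90.5%), and in 37.5% of the 27025 genes of the promoter table. Scap and Acat2 were the 2 genes without it. The element TCACNCCAC (GTGGNGTGA on the other strand) was found in 1 of the 21 genes, Hmgcs1, and in 1.22% of the table, and its shorter core CACNCCAC, which every match to the longer element also holds, in 3 of the 21 (14.3%; Hmgcs1, Acat2 and Insig1) and in 6.05% of the table. The search took only these exact strings, so a gene without a match may still hold a variant of the element. A match describes letters in this window and says nothing of binding, which was not measured.

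The windows of 4 enzymes whose transcripts varied widely between libraries of the same age are shown, with that of Acat2, which has no CCAAT. They are the plus strand of chr13:119690101-119690350 for Hmgcs1, the minus strand of chr8:122443423-122443672 for Mvd, the plus strand of chr13:8885356-8885605 for Idi1, the minus strand of chr8:64733579-64733828 for Msmo1 and the minus strand of chr17:12960726-12960975 for Acat2. Capitals mark CCAAT or ATTGG and, in Hmgcs1, the sterol element, which begins 137 bases before the start.
Hmgcs1: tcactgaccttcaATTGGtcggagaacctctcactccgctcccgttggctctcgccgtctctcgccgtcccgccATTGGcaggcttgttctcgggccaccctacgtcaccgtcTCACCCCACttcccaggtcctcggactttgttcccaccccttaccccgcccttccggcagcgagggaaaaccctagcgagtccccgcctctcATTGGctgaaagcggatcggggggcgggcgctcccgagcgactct
Mvd: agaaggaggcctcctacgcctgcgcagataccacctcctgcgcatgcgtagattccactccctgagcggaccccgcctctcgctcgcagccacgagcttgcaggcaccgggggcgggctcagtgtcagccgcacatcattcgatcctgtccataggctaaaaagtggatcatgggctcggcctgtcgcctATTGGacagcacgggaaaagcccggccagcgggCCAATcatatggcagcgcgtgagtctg
Idi1: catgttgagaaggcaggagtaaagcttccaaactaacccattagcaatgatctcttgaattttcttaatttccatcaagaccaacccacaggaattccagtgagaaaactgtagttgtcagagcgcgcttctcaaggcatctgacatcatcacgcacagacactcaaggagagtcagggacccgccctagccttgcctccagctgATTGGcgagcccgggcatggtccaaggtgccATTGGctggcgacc
Msmo1: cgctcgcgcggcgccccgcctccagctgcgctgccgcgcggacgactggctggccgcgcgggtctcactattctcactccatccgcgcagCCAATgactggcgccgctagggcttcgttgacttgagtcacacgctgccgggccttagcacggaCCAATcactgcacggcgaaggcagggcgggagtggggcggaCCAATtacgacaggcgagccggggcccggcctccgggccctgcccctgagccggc
Acat2: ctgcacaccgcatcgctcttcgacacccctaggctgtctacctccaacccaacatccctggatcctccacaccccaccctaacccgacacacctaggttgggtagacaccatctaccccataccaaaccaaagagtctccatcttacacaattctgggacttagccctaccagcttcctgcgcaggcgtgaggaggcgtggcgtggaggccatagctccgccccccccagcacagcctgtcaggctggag
Hmgcs1 and Msmo1 hold 3 CCAAT boxes each in this window, and Mvd and Idi1 hold 2 each.

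The libraries held 4724690 to 11143100 expected counts, of which the 26 genes took 11107 to 33370 counts, or 0.225% to 0.319%. The 45S ribosomal RNA precursor Rn45s took 19.97% to 22.4% of the counts at 21 months and 18.7% to 25.6% at 3 months. Hepatocyte markers summed to 85044 to 88290 CPM (counts per 1e+06 scaled counts) at 21 months and 71586 to 82539 CPM at 3 months, and 14 of the 15 listed were tested. Of these, 1 rose (Alb) and 3 fell (Apoa1, Fga and Fgg) at 21 months, which is 28.6% called, against 11.3% of all genes tested. The log2 fold change was negative in 9 of the 14 and positive in 5, with a median of -0.21. The higher sum at 21 months therefore does not describe most of these markers. No hepatocyte marker was at 0 in every library. Macrophage markers summed to 207, 603 and 441 CPM at 21 months, against 333 to 517 CPM at 3 months, with 0 of 12 called. In whole liver, fewer cells of a type and less RNA per cell cannot be told apart.

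None of the 26 genes passed the test between 21 and 3 months in the fit without a replicate block. With edgeR's quasi-likelihood test and Benjamini-Hochberg adjustment over all 11251 genes at a threshold of 0.05, 0 rose and 0 fell, whereas 11.3% of all genes tested were called, 5.47% higher and 5.86% lower at 21 months. DESeq2 on the same counts also called 0, and limma on log2 TPM called 1, Acat2. With the replicate number as a block, edgeR called 3 of the 26, with Insig2 higher (adjusted p = 0.0144) and Pmvk (adjusted p = 0.0381) and Idi1 (adjusted p = 0.00942) lower, against 9.55% of all genes. Replicate 4 of 3 months has no 21-month library of its number and does not enter the age difference in the block fit. In the fit without a block, an unadjusted p under 0.05 was reached by 4 genes. Of these, Acat2, Sc5d and Soat2 were higher and Pmvk lower at 21 months. The log2 fold change of 21 over 3 months was positive in 14 genes and negative in 12, with a median of 0.04, against -0.00149 over all genes tested. The 2 ages did not overlap in CPM for 2 of the 26 genes, Acat2 and Sc5d, both above at 21 months. Over all genes, 24.2% did not overlap, 11.3% with 21 months above and 12.8% with 21 months below.

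**Figure D1:**
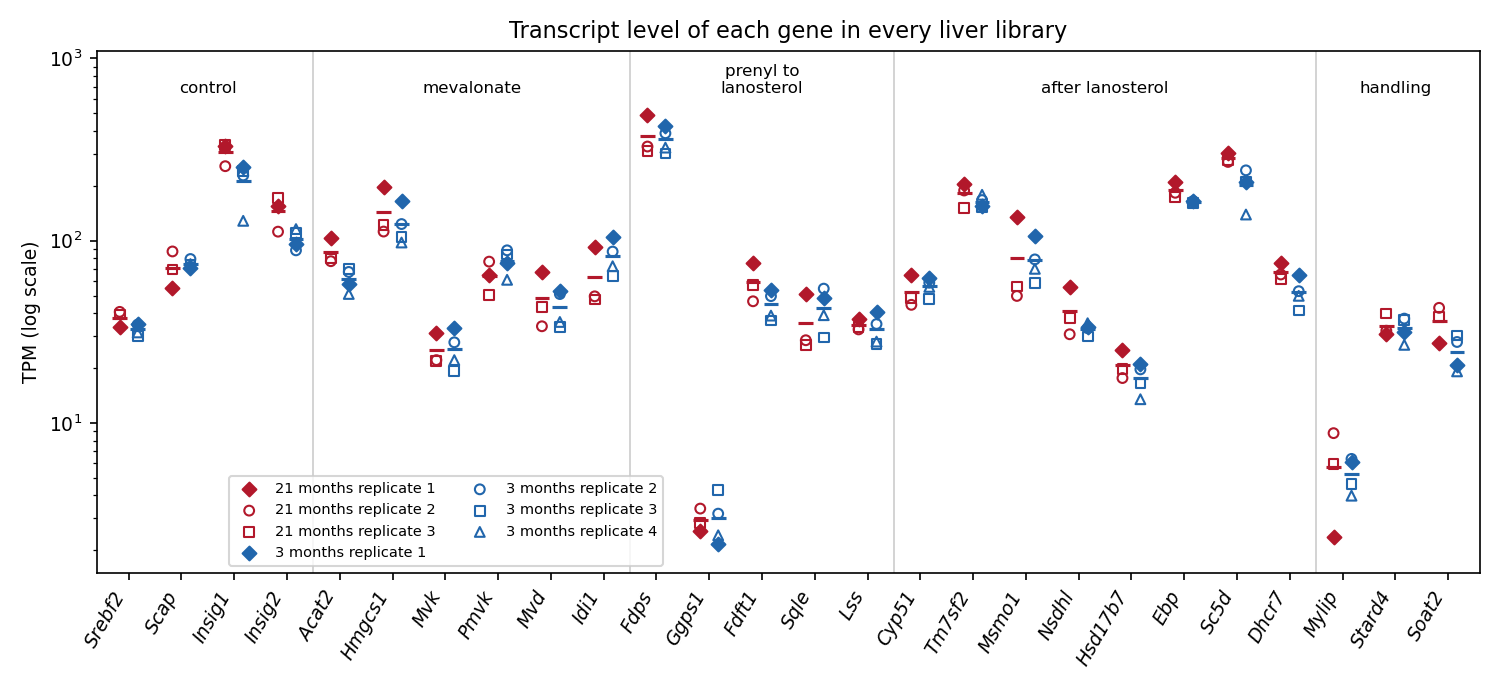
Transcript level in TPM (relative transcript abundance scaled for length, log axis) of each of the 26 genes in pathway order, with the 3 libraries of 21 months in red to the left of the 4 libraries of 3 months in blue, and a bar at each age's mean. Filled diamonds are replicate 1 of each age, which lies at the top of its age for most enzymes, as for Msmo1 (135 TPM at 21 months and 106 TPM at 3 months).

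Per transcript length, Fdps was the most abundant of the set, with 376 ± 98.7 TPM at 21 months and 360 ± 57.7 TPM at 3 months (SD, n = 3 and n = 4). Insig1 followed with 308 ± 44.7 TPM at 21 months and 213 ± 57.6 TPM at 3 months, and Sc5d with 283 ± 17.04 TPM at 21 months and 201 ± 43.9 TPM at 3 months. Insig1 and Sc5d overlapped in their library values at both ages, so their order does not exceed the spread between libraries. Fdps overlapped Insig1 at 21 months and lay above both genes in every library of 3 months. Ebp, Tm7sf2, Insig2 and Hmgcs1 averaged between 143 and 189 TPM at 21 months and between 103 and 164 TPM at 3 months. Ggps1 was the least abundant, with 2.92 ± 0.43 TPM at 21 months and 3.01 ± 0.95 TPM at 3 months, and Mylip was next, with 5.71 ± 3.21 TPM at 21 months and 5.26 ± 1.14 TPM at 3 months.

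Among the control genes, Srebf2, which encodes SREBP2 itself, was among the steadiest of the set. It had 76.9, 85.6 and 83.7 CPM in the 21-month libraries (replicates 1 to 3), against 86.7, 76.5, 67.0 and 80.7 CPM in the 3-month libraries (replicates 1 to 4). The ages overlapped, and the log2 fold change was 0.08 ± 0.10 (SE), with a 95% interval of -0.14 to 0.30 and an adjusted p of 0.687. The row of Srebf2 may include reads of the microRNA gene Mir33, which lies within it. Scap, the sterol-sensing escort, had 117, 170 and 137 CPM at 21 months, against 163, 162, 153 and 177 CPM at 3 months. Replicate 1 of 21 months was the lowest library for Scap, which differed by -0.22 ± 0.12 on the log2 scale (adjusted p = 0.264).

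The INSIG genes, which encode the proteins that hold SCAP in the endoplasmic reticulum, had higher means at 21 months, but neither passed the test. Insig1, itself a target of SREBP2, had 438, 310 and 411 CPM at 21 months, against 365, 289, 311 and 190 CPM at 3 months. Its log2 fold change was 0.42 ± 0.21, with an interval of -0.07 to 0.91 (adjusted p = 0.252), and replicate 4 of 3 months stood lowest, while replicate 2 of 21 months lay among the 3-month values. Insig2, which in mouse liver also has a transcript controlled by insulin, had 192, 129 and 197 CPM at 21 months, against 130, 109, 135 and 164 CPM at 3 months. The ages overlapped, since replicate 2 of 21 months lay below 3 of the 3-month libraries, and the log2 fold change was 0.36 ± 0.17 (adjusted p = 0.195, or 0.0144 with the replicate number as a block).

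At the entry to the pathway, Acat2, the cytosolic thiolase that joins acetyl-CoA units, had 106, 72.9 and 76.3 CPM at 21 months, against 64.8, 66.8, 70.2 and 58.8 CPM at 3 months. All 3 libraries of 21 months lay above all 4 of 3 months, with replicate 1 farthest up. The means were 85.1 ± 18.3 CPM at 21 months and 65.1 ± 4.80 CPM at 3 months (SD), and the log2 fold change was 0.39 ± 0.13, with an interval of 0.12 to 0.66 (adjusted p = 0.0598). Without replicate 1 of 21 months it was 0.20 (adjusted p = 0.209), and over all alternatives the adjusted p ran between 0.0229 and 0.269. A near copy of Acat2, Acat3, had 283 ± 25.2 CPM at 21 months and 241 ± 12.3 CPM at 3 months, and the split of reads between the 2 genes is uncertain. Hmgcs1, which makes HMG-CoA, had 322, 169 and 186 CPM at 21 months, against 295, 195, 167 and 180 CPM at 3 months. In each age replicate 1 stood well above the rest, the ages overlapped, and the log2 fold change was 0.11 ± 0.30 (adjusted p = 0.868).

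The kinases and the decarboxylase that turn mevalonate into isopentenyl diphosphate did not pass the test. Pmvk, the second kinase, had 37.7, 40.9 and 27.2 CPM at 21 months, against 47.4, 49.3, 47.3 and 39.6 CPM at 3 months. Only replicate 4 of 3 months lay within the 21-month values, and the log2 fold change was -0.38 ± 0.14, with an interval of -0.67 to -0.09 (adjusted p = 0.0828, or 0.0381 with the replicate number as a block). Mvk, the first kinase, averaged 19.6 ± 5.19 CPM at 21 months and 21.8 ± 5.88 CPM at 3 months (adjusted p = 0.740). Mvd, the decarboxylase, had 58.6, 27.1 and 35.1 CPM at 21 months, against 49.8, 42.6, 28.5 and 34.9 CPM at 3 months, and its log2 fold change was 0.05 ± 0.30 (adjusted p = 0.942). Replicate 1 of 21 months was the highest library for Mvd and replicate 2 of 21 months the lowest.

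Idi1, the isomerase that makes dimethylallyl diphosphate, had 133, 64.9 and 63.0 CPM at 21 months, against 163, 120, 89.4 and 116 CPM at 3 months. Replicates 2 and 3 of 21 months lay below every 3-month library, and replicate 1 lay above 3 of them. With all 7 libraries the log2 fold change was -0.49 ± 0.34, with an interval of -1.33 to 0.36 (adjusted p = 0.439), the most negative of the set. Without replicate 1 of 21 months it was -0.93 (adjusted p = 0.0330), with the replicate number as a block -0.56 (adjusted p = 0.00942), and over all alternatives the adjusted p ran between 0.00139 and 0.949.

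Of the 5 genes that lead through prenyl diphosphates to lanosterol, none passed the test. Fdps, which makes farnesyl diphosphate, had 307, 190 and 182 CPM at 21 months, against 291, 235, 185 and 228 CPM at 3 months (log2 fold change -0.05 ± 0.21, adjusted p = 0.919). Ggps1, which makes geranylgeranyl diphosphate for protein prenylation, had 3.26 ± 0.32 CPM at 21 months and 3.61 ± 0.90 CPM at 3 months (adjusted p = 0.777). Fdft1, squalene synthase, had 108, 60.9 and 75.8 CPM at 21 months, against 83.4, 68.3, 50.8 and 62.2 CPM at 3 months (log2 fold change 0.30 ± 0.22, adjusted p = 0.428). In all 3 genes the ages overlapped. In the annotation Fdft1 overlaps Ctsb, a more abundant gene that rose at 21 months (0.32 ± 0.10, adjusted p = 0.0456), and it is not stated whether the counting used strand.

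Sqle, squalene epoxidase, a step that can limit the rate of the pathway, had 70.2, 35.8 and 34.0 CPM at 21 months, against 72.5, 72.0, 39.2 and 59.9 CPM at 3 months. Replicates 2 and 3 of 21 months were the lowest of all 7 libraries, while replicate 1 was close to the top of 3 months, and the log2 fold change was -0.38 ± 0.34, with an interval of -1.21 to 0.44 (adjusted p = 0.541). Lss, which closes the rings of lanosterol, had 50.6 ± 5.97 CPM at 21 months and 52.4 ± 11.5 CPM at 3 months (log2 fold change -0.05 ± 0.15, adjusted p = 0.881).

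After lanosterol, 8 enzymes remove methyl groups and move or reduce double bonds, and again none passed the test. Sc5d, a sterol desaturase near the end of the pathway, came closest, with 338, 277 and 286 CPM at 21 months, against 255, 261, 229 and 174 CPM at 3 months. The ages did not overlap, the means were 301 ± 33.1 CPM at 21 months and 230 ± 39.9 CPM at 3 months (SD), and the log2 fold change was 0.39 ± 0.13, with an interval of 0.10 to 0.67 (adjusted p = 0.0746). Its adjusted p lay between 0.0520 and 0.173 over all alternatives, so no setting tried called it. Dhcr7, the reductase of the last step, had 106, 84.1 and 80.2 CPM at 21 months, against 99.1, 71.5, 56.6 and 78.4 CPM at 3 months (log2 fold change 0.24 ± 0.17, adjusted p = 0.409).

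Msmo1, which starts the removal of a pair of methyl groups, had the widest spread of the set. It had 122, 41.2 and 47.0 CPM at 21 months, against 104, 68.5, 51.2 and 70.8 CPM at 3 months, so that the highest library held 2.96 times the lowest at 21 months and 2.04 times at 3 months. Its log2 fold change was -0.06 ± 0.48, with an interval of -1.27 to 1.14 (adjusted p = 0.958), so the interval holds differences of 2-fold in either direction. Nsdhl, the dehydrogenase that acts after Msmo1, had 61.5, 31.0 and 38.4 CPM at 21 months, against 40.1, 35.1, 32.0 and 43.5 CPM at 3 months (log2 fold change 0.22 ± 0.22, adjusted p = 0.577). Hsd17b7, the ketoreductase of the same series of steps, had 57.8, 37.1 and 42.2 CPM at 21 months, against 52.7, 43.6, 36.8 and 34.7 CPM at 3 months (log2 fold change 0.13 ± 0.17, adjusted p = 0.690). In all 3 genes replicate 1 of 21 months was the highest of the 7 libraries.

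Cyp51, the lanosterol demethylase, had 142, 89.1 and 97.8 CPM at 21 months, against 149, 124, 102 and 136 CPM at 3 months. Replicates 2 and 3 of 21 months lay below all 3-month libraries, and the log2 fold change was -0.22 ± 0.17 (adjusted p = 0.468), or -0.45 without replicate 1 of 21 months (adjusted p = 0.0277, with a range of 0.0277 to 0.9749 over all alternatives). The sterol isomerase gene Ebp had 154 ± 22.7 CPM at 21 months and 146 ± 11.5 CPM at 3 months (adjusted p = 0.668). Tm7sf2, a sterol reductase, had 126 ± 23.2 CPM at 21 months and 123 ± 16.1 CPM at 3 months (adjusted p = 0.910), and overlaps Vps51 in the annotation, which was not called (adjusted p = 0.413).

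Among the 3 handling genes, Soat2, which esterifies cholesterol for storage and lipoprotein secretion in hepatocytes, came closest to the threshold of all 26. It had 29.2, 41.5 and 37.2 CPM at 21 months, against 23.7, 28.2, 30.9 and 22.7 CPM at 3 months. Replicate 1 of 21 months lay within the 3-month values, and the other two lay above them. The log2 fold change was 0.44 ± 0.14, with an interval of 0.14 to 0.74 (adjusted p = 0.0573). It was called higher in 4 of 16 alternatives, with adjusted p between 0.00741 and 0.376. Stard4, a cytosolic sterol carrier, had 48.2 ± 5.98 CPM at 21 months and 50.7 ± 4.04 CPM at 3 months (adjusted p = 0.741). Mylip, a ubiquitin ligase that removes lipoprotein receptors and is a target of the sterol sensors of the LXR family, had 3.55, 12.01 and 8.21 CPM at 21 months, against 9.85, 9.09, 6.68 and 6.65 CPM at 3 months. Replicate 1 of 21 months was its lowest library and replicate 2 of 21 months its highest (log2 fold change -0.08 ± 0.35, adjusted p = 0.927).

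**Figure D2:**
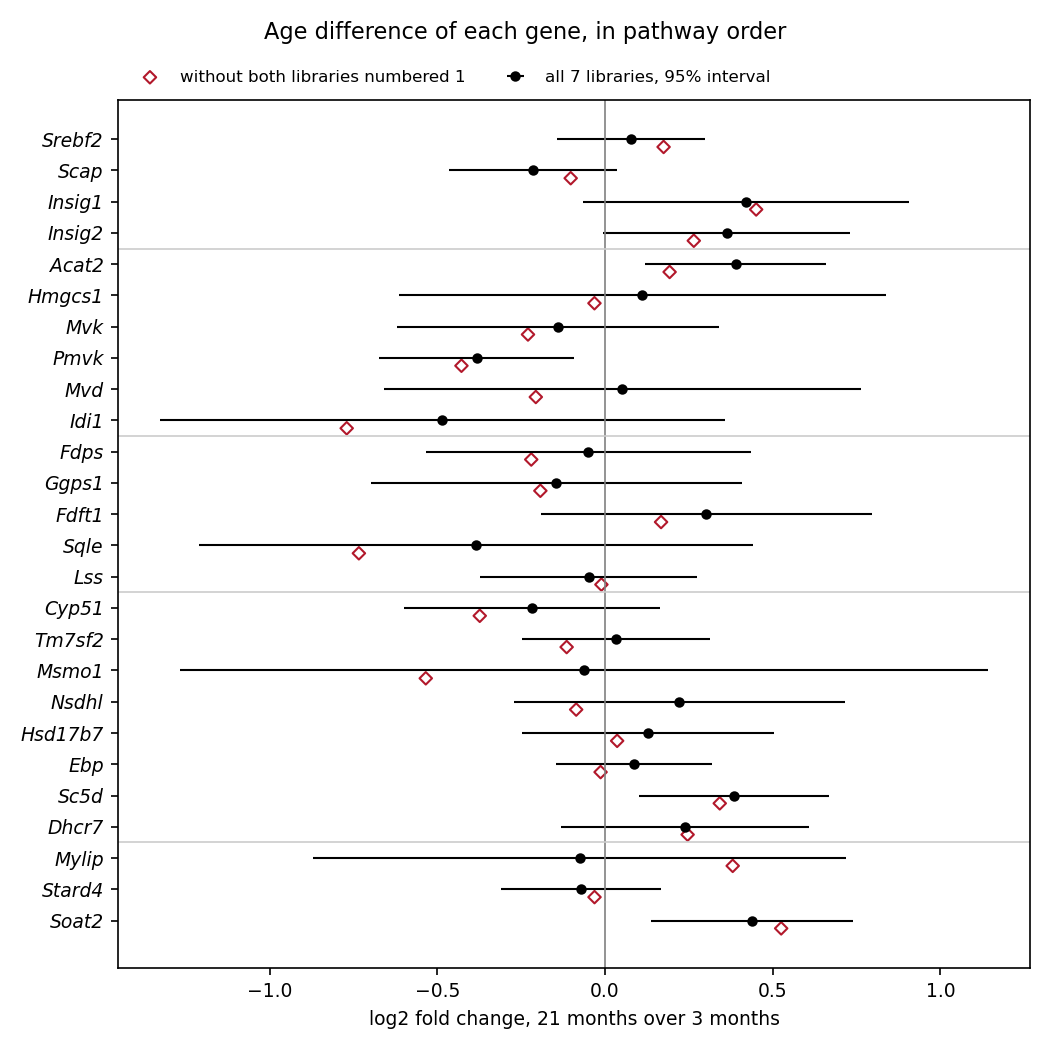
Log2 fold change of 21 over 3 months for the 26 genes in pathway order, with black points and 95% intervals from all 7 libraries and open red diamonds from the fit without both libraries numbered 1. Intervals of Acat2, Sc5d and Soat2 lie above 0 and that of Pmvk below 0 before adjustment, and the diamonds of Idi1 (-0.77), Sqle (-0.73) and Msmo1 (-0.53) lie farther below 0 than the points.

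The enzymes varied more between libraries of the same age than most genes did. The pooled SD of log2 CPM within an age had a median of 0.29 over the 26 genes and over the 19 enzymes, against 0.20 over all genes tested. It was above the median of all genes for 22 of the 26, and for 18 of the 19 enzymes. The 6 with the widest spread were Msmo1 (SD 0.63), Mylip (0.57), Sqle (0.48), Idi1 (0.47), Mvd (0.44) and Hmgcs1 (0.42). The steadiest were Srebf2 (0.13), Stard4 (0.14) and Ebp (0.16). The SD was larger at 21 months than at 3 months in 19 of the 26 genes (73.1%), and in 55.2% of all genes.

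**Figure D3:**
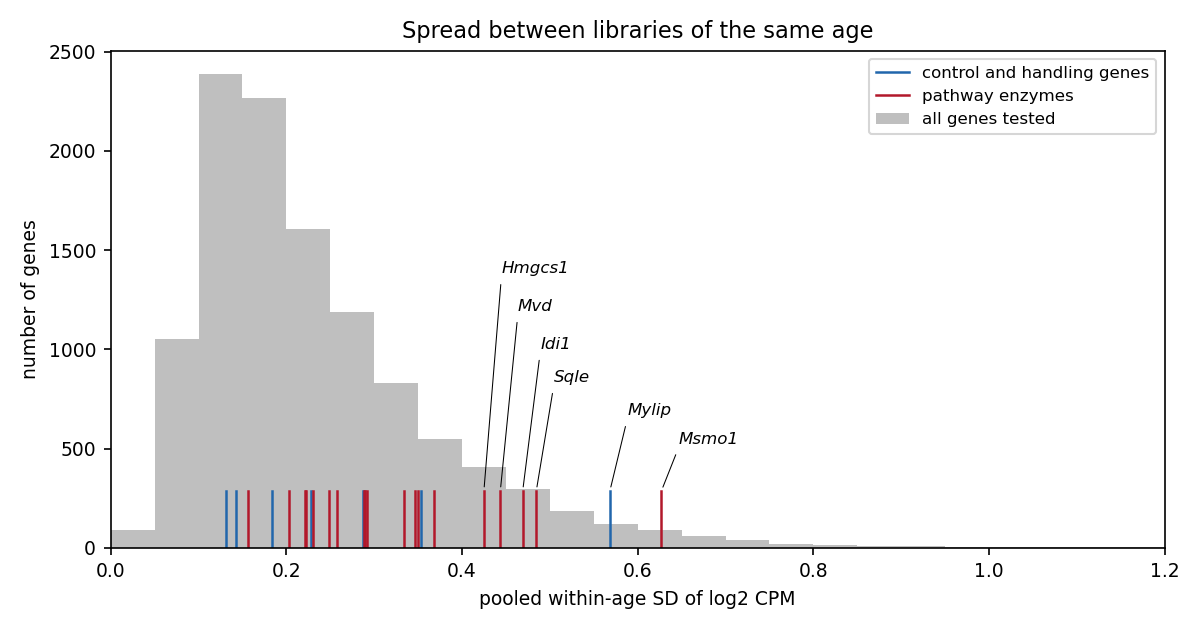
Number of genes by their pooled within-age SD of log2 CPM, in grey for the 11251 genes tested, with vertical marks for the 19 pathway enzymes in red and for the 7 control and handling genes in blue. Of the 26 marks, 22 lie to the right of the median of all genes (0.20), with Msmo1 at 0.63 and Mylip at 0.57 farthest out.

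The spread was shared among the enzymes, in that the same libraries stood high or low for most of them. Replicate 1 of 21 months was the highest of its age for 17 of the 19 enzymes, as it was for 38.6% of all genes. Replicate 1 of 3 months was the highest of its age for 12 of the 19 enzymes, as it was for 24.6% of all genes, and replicate 3 of 3 months was the lowest for 14 of the 19, as it was for 23.2% of all genes. The enzymes' median log2 difference from the mean of the other libraries of their age was 0.60, -0.31 and -0.22 for replicates 1 to 3 of 21 months, and 0.43, 0.03, -0.42 and -0.08 for replicates 1 to 4 of 3 months. Over all genes these medians lay between -0.003 and 0.01. Summed over the 19 enzymes, the level was 2385, 1559 and 1580 CPM at 21 months, against 2144, 1784, 1490 and 1691 CPM at 3 months. The sums of the 2 ages overlapped, with replicate 1 highest in each.

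Some genes of the set did not share this order. Pmvk and Ggps1 were the 2 enzymes whose highest 21-month library was not replicate 1. Scap, Soat2 and Mylip were lowest in replicate 1 of 21 months, at -0.25, -0.28 and -0.91 from the mean log2 CPM of their age, where Msmo1 was at 0.97 and Idi1 at 0.70. Srebf2 itself was at -0.09 in that library and at 0.16 in replicate 1 of 3 months. Insig1 was at 0.20 and at 0.38 in these 2 libraries, and its lowest value was in replicate 4 of 3 months, at -0.56.

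**Figure D4:**
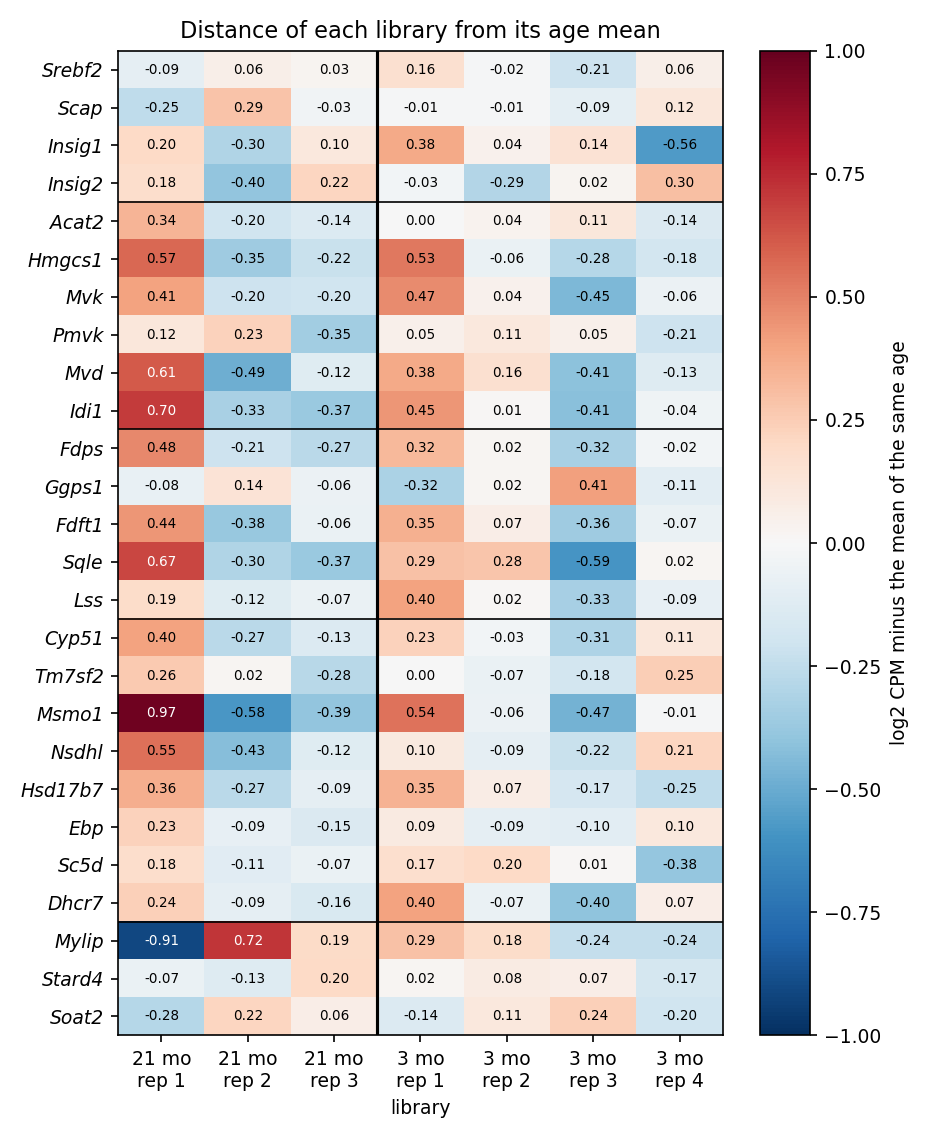
Log2 CPM of each gene in each library minus the mean of its age, with the 3 libraries of 21 months on the left and the 4 of 3 months on the right, on a scale from blue (-1) to red (1). The column of replicate 1 is red for most enzymes at both ages (0.97 and 0.54 for Msmo1), that of replicate 3 of 3 months is blue (-0.59 for Sqle), and Mylip runs the other way at 21 months (-0.91).

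Several measures differed between the same libraries, and their part in this pattern was not tested. Replicate 1 had the largest share of Rn45s in its age, with 22.4% at 21 months and 25.6% at 3 months. Its depth was the largest of its age at 21 months (10458600 counts) and the second smallest at 3 months (5932700 counts). Markers of red cells summed highest in replicate 1 of each age, with 1319 CPM at 21 months and 1844 CPM at 3 months, against 1037 to 1213 CPM and 649 to 1003 CPM in the other libraries of those ages. Macrophage and endothelial markers were lowest of all libraries in replicate 1 of 21 months, at 207 and 179 CPM, and lay inside the range of the other libraries in replicate 1 of 3 months, at 356 and 351 CPM. No endothelial or macrophage marker was at 0 in every library. The median shortfall of effective length, which is gene length minus effective length, was 35.4, 30.9 and 21.4 bases at 21 months, against 36.9, 38.8, 35.7 and 34.4 bases at 3 months. Replicates 2 and 3 of 21 months lay below every 3-month library, so the shortfall is partly tied to age. With this shortfall as a covariate 19 of the 26 log2 fold changes were positive, and 0 genes of the set and 2.95% of all genes were called.

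In the fit with the replicate number as a block, Insig2 rose at 21 months (0.45 ± 0.10, adjusted p = 0.0144). Pmvk (-0.45 ± 0.13, adjusted p = 0.0381) and Idi1 (-0.56 ± 0.12, adjusted p = 0.00942) fell in that fit, which removes what libraries of the same number share. No 21-month library is numbered 4, so replicate 4 of 3 months does not enter the age difference there. Leaving out that library without a block gave 0.47 for Insig2 (adjusted p = 0.104), -0.45 for Pmvk (adjusted p = 0.0792) and -0.51 for Idi1 (adjusted p = 0.527). Over all alternatives their adjusted p ran between 0.0144 and 0.641 for Insig2, between 0.0381 and 0.759 for Pmvk and between 0.00139 and 0.949 for Idi1. Without replicate 1 of 21 months, 14.4% of all genes were called, and of the set Soat2 was higher and Idi1 and Cyp51 were lower. In that fit 17 of the 26 log2 fold changes were negative, against 12 with all libraries. Without both libraries numbered 1, a choice made after seeing the pattern, 13% of all genes were called, and of the set Soat2 was higher (0.53 ± 0.13, adjusted p = 0.0184). Idi1 (-0.77 ± 0.13, adjusted p = 0.00139) and Msmo1 (-0.53 ± 0.14, adjusted p = 0.0206) were lower in that fit.

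Genes that work beside the pathway were taken from a list of 52, of which 50 were tested, and 4 rose and 0 fell at 21 months. That is 8% of the 50 called, against 11.3% of all genes tested (5.47% higher and 5.86% lower). The 4 were Srebf1 and 3 genes of sterol transport and sterol esters. Srebf1, the SREBP gene best known for fatty acid synthesis, had 564, 691 and 623 CPM at 21 months, against 443, 387, 495 and 348 CPM at 3 months (0.58 ± 0.12, adjusted p = 0.00736). Lipa, the lysosomal lipase that frees cholesterol from esters, had 230, 196 and 205 CPM at 21 months, against 116, 145, 132 and 103 CPM at 3 months (0.76 ± 0.12, adjusted p = 0.00105). In both genes the ages did not overlap. Npc2, which carries cholesterol out of lysosomes, averaged 53.0 ± 5.02 CPM at 21 months and 41.1 ± 2.19 CPM at 3 months (0.36 ± 0.10, adjusted p = 0.0361). Stard5, a sterol carrier, averaged 88.4 ± 6.58 CPM at 21 months and 69.2 ± 5.57 CPM at 3 months (0.35 ± 0.10, adjusted p = 0.0337).

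The count of 4 was 7 with limma on log2 TPM and 1 with the effective-length shortfall as a covariate. It was 2 without replicate 3 of 21 months or without replicate 1, 2 or 3 of 3 months, and 6 without replicate 1 of 21 months.

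The rest of that list gave no call. The next genes by p were Rabggta and Rabggtb, subunits of the enzyme that prenylates Rab proteins, Acly, which makes cytosolic acetyl-CoA, Coq2, an enzyme of coenzyme Q synthesis, Pgrmc1 and Rnf139. Their adjusted p lay between 0.0637 and 0.0821. Rabggta averaged 31.6 ± 0.81 CPM at 21 months and 25.1 ± 2.78 CPM at 3 months, and Rabggtb averaged 15.3 ± 1.55 CPM at 21 months and 20.01 ± 2.10 CPM at 3 months. Acly averaged 365 ± 26.5 CPM at 21 months and 281 ± 47.6 CPM at 3 months. One part of the list held genes of electron and acetyl supply together with genes of other roles. It includes Por and the cytochrome b5 genes that feed the oxygen-using steps. All 11 genes tested in this part had positive log2 fold changes between 0.01 and 0.60, and 0 of them passed the test. Over all genes tested, 5600 of 11251 log2 fold changes were positive. The median SD of log2 CPM within an age was 0.15 over the 50 genes, against 0.29 over the 26.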

How the data were processed

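Gene tables of 7 liver libraries were used. Per the labels' protocols, total RNA was enriched for mRNA and made into strand-specific libraries, and the submitters' processing notes name TopHat, RSEM, edgeR and build mm9, with no versions or roles. The authors deposited expected counts (estimated counts per gene), TPM and FPKM, and, per the file headers, gene length and effective length. FPKM was not used.

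Expected counts were rounded, filtered with edgeR 4.0.16 (filterByExpr, minimum count 10, minimum total 15), TMM-scaled and passed to the quasi-likelihood test of edgeR (robust option) in R 4.3.3, with Benjamini-Hochberg adjustment at 0.05. A log2 fold change is 21 minus 3 months. CPM are counts per 1e+06 TMM-scaled counts, and spread is the SD of log2(CPM + 0.5). Alternatives used DESeq2 1.42.0 and limma 3.58.1 on log2(TPM + 1). Figures were drawn in Python 3.11.15 with matplotlib 3.10.9. The test was tried on simulated counts, where it recovered 86% of 50 genes set 1 log2 unit up and 84% of 50 set 1 unit down, among 11148 genes, with 16 false calls. Counts were drawn independently for each library, with the spread fitted to genes of similar level. The 26 genes varied more than most (median SD 0.29, against 0.20 over all genes), so these rates do not describe them.

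Deviations of libraries with the same replicate number correlated at 0.110, 0.176 and 0.108, so a fit with the number as a block is also given. No label states such a pairing. The main fit, its intervals and the SDs within an age use no block. Replicate 1 of 21 months correlated more with replicate 4 of 3 months (0.157). All pairs of libraries differed beyond counting noise. The members and all lists were chosen with earlier results of these data known. Every member is named. Partner genes are named where called, with at most 6 more by p. Of other lists at most 3 genes are named by p, apart from Bhlhe40, Cry1 and the 4 hepatocyte markers called.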

Additional observations from a re-analysis of the deposited data

How the results depend on the processing

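With all 7 libraries, 1274 genes differed between the ages. Leaving out 1 library at a time gave 580 to 1642, and the effective-length shortfall as a covariate gave 332. For the 26 genes, RLE scaling, a minimum of 5 CPM on average (which dropped Ggps1), DESeq2 and the covariate left 0 called. The count higher at 21 months was 2 with no filter (Acat2 and Soat2) and 1 with limma on log2 TPM (Acat2). It was 1 (Soat2) with the rows of Rn45s and Lars2 removed, of which Lars2 took 1.33% to 2.55% of the counts. The count was also 1 with the replicate block and 1 without both libraries numbered 1, and it ran from 0 to 2 when libraries were left out in turn. The count lower was 1 with no filter (Pmvk), 2 with the replicate block and 2 without both libraries numbered 1, and it ran from 0 to 2 when libraries were left out. Of the libraries left out in turn, replicates 1 and 2 of 21 months were the 2 whose removal gave calls, the second for Insig2, Acat2 (higher) and Pmvk (lower). The partner genes higher numbered 4, or 7 with limma on log2 TPM, 1 with the covariate and 2 to 6 with a library left out. The lower count was 0 in each. The replicate block changed no other call among the 26.

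Signs of uncalled genes turned under some settings. With the covariate, the log2 fold change was 0.14 for Mvk, 0.26 for Fdps, 0.0767 for Sqle, 0.0862 for Lss and 0.44 for Msmo1. On log2 TPM, which moved the median of all genes by 0.10, it was 0.0486 for Fdps, 0.0892 for Lss and 0.0483 for Stard4. With the replicate block it was -0.0452 for Mvd. Without both libraries numbered 1 it was -0.0315 for Hmgcs1, -0.21 for Mvd, -0.11 for Tm7sf2, -0.0860 for Nsdhl, -0.0132 for Ebp and 0.38 for Mylip. With a library left out in turn, it ran from -0.24 to 0.32 for Hmgcs1, -0.39 to 0.0265 for Mvk, -0.33 to 0.28 for Mvd, -0.34 to 0.10 for Fdps, -0.15 to 0.10 for Lss and -0.11 to 0.18 for Tm7sf2. In the same way it ran from -0.74 to 0.22 for Msmo1, -0.11 to 0.43 for Nsdhl, -0.0819 to 0.27 for Hsd17b7, -0.0426 to 0.18 for Ebp, -0.48 to 0.29 for Mylip and -0.16 to 0.00774 for Stard4. The cause was not tested. Depth limits Ggps1 and Mylip most, at 2.74 to 12.01 CPM.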

Other observations

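The 2 programmes best known to set the daily level of cholesterol synthesis are the clock and the response to feeding. Genes of both differed between the ages in part, whereas 0 of the 26 genes were called in the fit without a replicate block. The part of these programmes in the pattern of the enzymes between libraries was not tested. Of 16 clock genes tested, 3 rose and 0 fell at 21 months, which is 18.8% called, against 11.3% of all genes tested (5.47% higher and 5.86% lower). Nr1d1, a clock repressor, had 28.2, 27.0 and 39.5 CPM at 21 months, against 15.1, 13.99, 16.8 and 19.3 CPM at 3 months (log2 fold change 0.96 ± 0.15, edgeR's quasi-likelihood test). Nr1d2, its close relative, had 15.4, 13.5 and 18.4 CPM at 21 months, against 9.12, 6.09, 9.91 and 8.44 CPM at 3 months. Npas2, a clock activator, had 10.6, 13.3 and 10.3 CPM at 21 months, against 5.11, 9.01, 7.08 and 7.47 CPM at 3 months. In all 3 genes the ages did not overlap. Bhlhe40, a clock repressor that was not called and was singled out after its values were seen, was highest in replicate 1 of each age, with 79.0, 53.2 and 44.8 CPM at 21 months, against 62.6, 31.4, 36.0 and 41.1 CPM at 3 months. Over all genes, replicate 1 was the highest of its age for 38.6% at 21 months and for 24.6% at 3 months. Of 16 genes of the feeding response, 5 rose (31.2%) and 0 fell, against 5.47% and 5.86% of all genes. Their log2 fold changes were positive in 13 and negative in 3, from -0.73 to 1.11. The list was not split by the direction in which feeding moves each gene, so these counts give no feeding state. Among those that rose were G6pc, which releases glucose (0.56 ± 0.11), Srebf1 and Fasn, fatty acid synthase (0.54 ± 0.14). Fasn had 1439, 1277 and 1467 CPM at 21 months, against 1097, 1013, 1051 and 687 CPM at 3 months.

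Markers of other cell types are set against the 11.3% of all genes called. Of 11 stellate cell markers tested, 2 rose (Dcn and Cygb, 18.2%). Of 9 fat cell markers listed, 5 were tested, and 2 of these rose (Cidec and Pparg, 40%). Whether the transcripts of these 2 genes came from fat cells was not tested. Of 10 endothelial markers 1 fell (Lyve1, 10%), of 4 bile duct markers 1 fell (Sox9, 25%), and of 3 B cell markers 1 rose (Igj, 33.3%). None was called among 5 red cell markers, 1 T cell marker, 1 neutrophil marker and 1 marker of steroid-making glands.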
